A study of Mus musculus with 4 samples.

Results

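The regions described here are promoters of protein-coding genes in mouse embryonic stem cells (ESCs) that carried both a Bio-Myc and a Max ChIP-Seq peak but no canonical E-box, the sequence CACGTG. They were chosen by measured values: a Bio-Myc peak with 1 bp or more in common with a Max peak, that reached within 1 kb of any annotated transcription start site (TSS) of a protein-coding gene, and whose mm9 sequence held no CACGTG anywhere under the peak. On the autosomes and the X chromosome 1112 peaks met the rule. They were 46.1% of the 2410 shared peaks at coding promoters (95% Wilson interval 44.2 to 48.1%) and 28.1% of all 3962 Bio-Myc peaks. All Wilson intervals given here cover counting error only. The Max list held 11570 peaks. The 1112 promoter peaks are called members below.

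The Bio-Myc peaks came from a stable E14 clone, a line of mouse ESCs, that expressed Myc with a biotinylated tag at its N-terminus from a ubiquitous EF1α promoter, and the chromatin was purified on streptavidin beads. The Max peaks came from parental wild type E14 cells and an antibody against Max. The controls used by the authors in peak calling were a mock streptavidin ChIP for Bio-Myc, from parental wild type cells according to the sample description and from cells with the biotin ligase BirA and no tagged protein according to the methods, and an IgG ChIP in parental wild type cells for Max. Each ChIP was 1 library of 1 culture or clone, so no value below has an error between cultures, differences between the lists can be differences between these libraries, and the depth is unknown because the lists hold no read counts. The score of a peak is 10 times the negative log10 of its MACS p-value, and the lists start at a score of 80.

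Myc is a transcription factor of the helix-loop-helix family and binds DNA as a dimer with Max. Max also forms dimers with itself and with the Mxd proteins, Mnt and Mga, and all of these dimers read the E-box, with CACGTG as the preferred form and several related hexamers as weaker forms. In ESCs and in other growing cells Myc is known for its presence at CpG-rich promoters of genes for ribosome production, metabolism and the cell cycle.

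Sequences of these promoters are shown first, since the rule sets only which sequence is absent. The most frequent variant was CACGCG, which has 1 base other than the canonical E-box, reads CGCGTG on the other strand and is called the CpG E-box below. The following stretches show the non-exonic CpG E-box nearest to the peak centre with 20 bases to either side. They are a selection from the promoters chosen by the rule for named genes, so that different flanks can be compared. All are read 5′ to 3′ on the strand of the gene in mm9, and the capitals mark the CpG E-box.
Psat1, chr19:15999672-15999717, minus strand: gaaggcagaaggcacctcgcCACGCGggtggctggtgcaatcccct
Snrpa1, chr7:73205597-73205642, plus strand: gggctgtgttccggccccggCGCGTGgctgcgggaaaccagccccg
Mrpl43, chr19:45080984-45081029, minus strand: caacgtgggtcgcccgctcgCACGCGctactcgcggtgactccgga
Cct5, chr15:31531955-31532000, minus strand: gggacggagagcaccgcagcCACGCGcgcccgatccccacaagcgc
Pgam1, chr19:41986253-41986298, plus strand: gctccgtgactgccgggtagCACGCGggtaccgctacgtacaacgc
Ring1, chr17:34161647-34161692, minus strand: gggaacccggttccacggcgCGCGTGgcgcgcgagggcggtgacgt
Zfp280d, chr9:72122501-72122546, plus strand: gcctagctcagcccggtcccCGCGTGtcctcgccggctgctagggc
Klhl7, chr5:23606320-23606365, plus strand: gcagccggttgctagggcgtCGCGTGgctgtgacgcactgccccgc

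The centre of the motif lay 145 bp upstream of the TSS in Psat1, 47 bp upstream in Snrpa1, 113 bp in Mrpl43, 375 bp in Cct5, 85 bp in Pgam1, 44 bp in Ring1, 182 bp in Zfp280d and 65 bp in Klhl7. All sites in this selection lay upstream, which was not so for all named promoters. The site nearest to the peak centre lay downstream by 1212 bp in Mnt, 713 bp in Polr1d, 451 bp in Ippk and 167 bp in Atp5g2. Both peaks with high Bio-Myc scores (Psat1, 721) and peaks just above the lower limit of the list (Klhl7, 80.4) held the motif.

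The next stretches are the 200 bases upstream of the TSS of 5 promoters, and show how much the composition varied among promoters that shared the same binding call. The capitals mark any of the 7 E-box variants searched or the motif of ETS factors (CCGGAAG), NRF1 (GCGCATGCG) or YY1 (AAGATGGCG), on either strand.
Rps7, chr12:29320819-29321018, minus strand: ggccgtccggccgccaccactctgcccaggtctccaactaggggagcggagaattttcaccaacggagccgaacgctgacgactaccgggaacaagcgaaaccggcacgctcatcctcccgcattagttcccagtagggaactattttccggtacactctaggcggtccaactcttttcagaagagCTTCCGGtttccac
Mll5, chr5:22940059-22940258, plus strand: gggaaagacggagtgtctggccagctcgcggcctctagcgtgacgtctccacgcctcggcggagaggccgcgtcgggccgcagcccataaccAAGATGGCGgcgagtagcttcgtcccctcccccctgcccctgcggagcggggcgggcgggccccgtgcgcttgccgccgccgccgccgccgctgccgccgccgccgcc
Atp5g2, chr15:102501479-102501678, minus strand: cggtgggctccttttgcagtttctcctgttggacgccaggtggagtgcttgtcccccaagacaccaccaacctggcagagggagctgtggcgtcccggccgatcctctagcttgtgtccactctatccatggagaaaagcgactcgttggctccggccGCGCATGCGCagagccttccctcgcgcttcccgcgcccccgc
Ezh2, chr6:47545341-47545540, minus strand: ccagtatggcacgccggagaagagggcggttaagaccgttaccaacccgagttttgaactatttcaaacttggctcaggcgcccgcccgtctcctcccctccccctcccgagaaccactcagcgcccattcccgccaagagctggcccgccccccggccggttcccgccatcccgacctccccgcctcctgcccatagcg
Mtf2, chr5:108494493-108494692, plus strand: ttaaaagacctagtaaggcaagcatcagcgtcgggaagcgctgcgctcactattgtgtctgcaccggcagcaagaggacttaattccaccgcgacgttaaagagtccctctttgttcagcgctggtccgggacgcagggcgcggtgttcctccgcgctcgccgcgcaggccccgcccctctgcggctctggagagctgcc

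In Rps7 only an ETS motif was found, in Mll5 only a YY1 motif, and in Atp5g2 overlapping NRF1 and CATGCG matches. In Ezh2 and Mtf2 these 200 bases held none of the motifs. A match is a description of the letters in the window and not a binding site.

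The members were mostly peaks of moderate score, and most had a higher score for Max than for Bio-Myc. Both scores come from libraries with different purification and controls, so a higher score for Max does not mean stronger binding. The Bio-Myc score had a median of 132, with quartiles of 101 and 201 and a lowest value of 80. The score of the highest overlapping Max peak had a median of 232, with quartiles of 153 and 347 and a range from 80.4 to 1772. Max scored higher than Bio-Myc in 872 members (78.4%), and both scores reached 150, which is a p-value of 1e-15, in 392 (35.3%). Across the members both scores were weakly related (Spearman's rho 0.283 over 1112 peaks, which share the 2 libraries). The 1298 shared coding promoters with CACGTG had a median Bio-Myc score of 169, a median Max score of 338 and a rho of 0.385. In that class, too, the Max median was above the Bio-Myc median. Scores entered the choice of all these peaks, so they are given without a test.

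**Figure D1:**
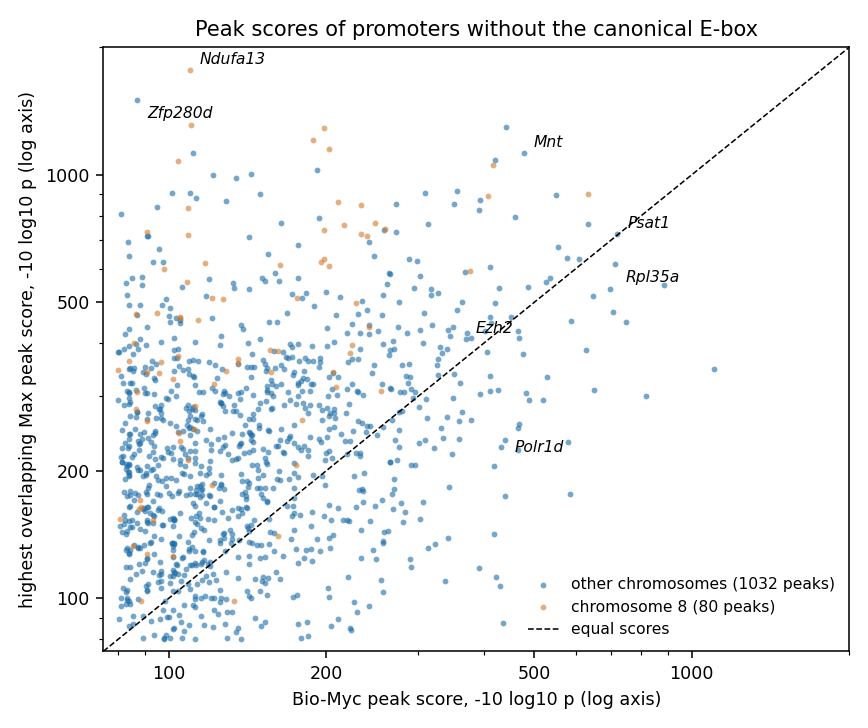
Bio-Myc score (x axis) against the highest overlapping Max score (y axis) of the 1112 promoter peaks without the canonical E-box, both as 10 times the negative log10 of p, on log axes. Each point is a peak, orange points lie on chromosome 8 and the dashed line marks equal scores. Most points lie above the line, and the 80 peaks on chromosome 8 lie high on the y axis (median Max score 391).

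Among the promoters with the highest Bio-Myc scores, several belonged to ribosomal protein genes, and most scored lower for Max. A peak between the divergent genes Trappc4, a vesicle tethering factor, and Rps25, a protein of the small ribosomal subunit, scored 884 for Bio-Myc and 551 for Max. The peak between S100pbp and Yars, the tyrosyl-tRNA synthetase, scored 817 for Bio-Myc and 300 for Max. Zmat3, a zinc finger protein, followed with 749 and 450. Psat1, an aminotransferase of serine synthesis, scored higher for Max, with 725 against 721. Others in this group were Rpl35a (715 and 615), Rps27l (707 and 474), Rps7 (699 and 536), Cct2, a subunit of the cytosolic chaperonin (650 and 310), and Ywhae, a 14-3-3 protein (648 and 517).

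The highest Max scores were found at other promoters, and Bio-Myc was near its lower limit at several of them. Ndufa13, a subunit of complex I, had a Max score of 1772 beside a Bio-Myc score of 110. Zfp280d had 1500 for Max and 87.2 for Bio-Myc, Cc2d1a 1310 and 110, Nup85 of the nuclear pore 1298 and 441, and Ankrd10 1288 and 198. Of these 5, Ndufa13, Cc2d1a and Ankrd10 lie on chromosome 8. The 80 members on that chromosome had a median Max score of 391, against medians between 174 and 286 on the other chromosomes, while their median Bio-Myc score was 121. The part of the chromosome in these Max scores was not tested.

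At the lower end, B4galnt1 (Bio-Myc score 80, Max score 382), Cln8 (80 and 347), Pou2f3 (80.2 and 295), Rmnd5b (80.2 and 381) and Klhl7 (80.4 and 89.4) were the 5 members closest to the limit of the Bio-Myc list. B4galnt1, a ganglioside synthase, held none of the 7 E-box variants in its whole peak. Pou2f3 and Klhl7 each held 3 CpG E-boxes.

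The absence of CACGTG varied with the score, and with it the amount of sequence under a peak. When the 2410 shared promoter peaks were put into 10 bins of 241 by Bio-Myc score, 58.5% of the lowest bin held no CACGTG (95% Wilson interval 52.2 to 64.6%), and 26.1% of the highest (21.0 to 32.0%). By Max score the share went from 69.3% (63.2 to 74.8%) to 21.2% (16.5 to 26.8%). The peaks also widened along this order, from a median of 936 bp in the lowest Bio-Myc bin to 1444 bp in the highest. Within the central 300 bp of each peak, a fixed length, 76.8% of the lowest and 66.4% of the highest Bio-Myc bin held no CACGTG. The bins between them ranged from 71.4 to 75.5%. This central share still varied with peak width, from 67.6% in the narrowest to 87.1% in the widest of 10 bins by width. The part of width in the shares by score was not tested. By Max score the central shares were 85.9% in the lowest and 67.2% in the highest bin, with the smallest share, 62.7%, in the 8th. Both shares were thus lower at high Max scores, while over the Bio-Myc scores the central share moved by less. These peaks were called by the same scores, so no test is given.

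**Figure D2:**
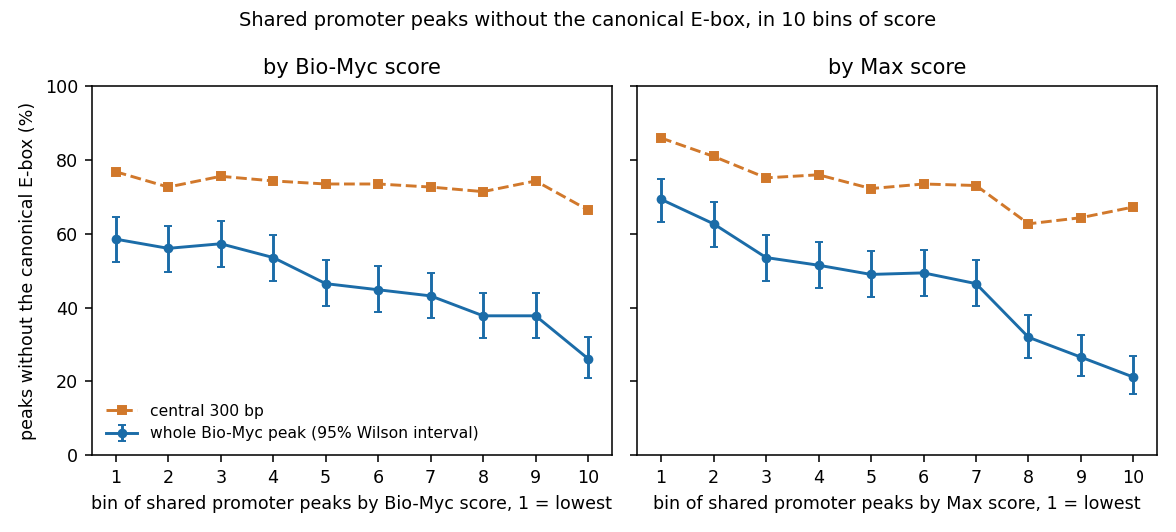
Percent of the 2410 shared promoter peaks without CACGTG in 10 bins by Bio-Myc score (left) or Max score (right), where bin 1 has the lowest scores and each holds 241 peaks. Circles with 95% Wilson intervals count CACGTG under the whole peak, which selected the members, and squares count it in the central 300 bp only. The whole-peak shares go from 58.5 to 26.1% (left), while the central shares on the left stay between 66.4 and 76.8%.

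The canonical E-box was rarely just outside the peaks. The nearest CACGTG was at a median of 2757.5 bp from the edge of the peak. It lay within 100 bp of an edge in 25 members, within 500 bp in 128 (11.5%) and within 1000 bp in 248 (22.3%), and 19 members had none within 20 kb. In 36 members (3.24%) the overlapping Max peak reached a CACGTG that the Bio-Myc peak did not. Just outside the rule, 18 of the 1298 peaks with an E-box held it only within 50 bp of an edge, and just inside it 16 members had one starting within 50 bp beyond an edge. Of the peaks with an E-box, 649 held it in their central 300 bp. As background, 88.4% of 12030 CpG-rich coding TSSs without any peak had no CACGTG within a window of 1000 bp.

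The members lay on the TSS. Of the 1112 peaks, 1026 (92.3%) covered an annotated coding TSS, and the signed distance from the TSS to the peak centre had a median of 24 bp downstream, with quartiles of 68 bp upstream and 143 bp downstream. The centres of 880 peaks (79.1%, 95% Wilson interval 76.7 to 81.4%) were within 250 bp of a coding TSS, compared with 898 of 1298 (69.2%, 66.6 to 71.6%) of the promoters with CACGTG. Peaks without CACGTG were also narrower, with a median width of 1036.5 bp against 1144 bp. The member farthest from a TSS had its edge 932 bp away, and the nearest shared peak without CACGTG outside the window was 1034 bp away. Among the named genes, the Mnt peak was centred 908 bp downstream of the nearest TSS, which is an internal one, without covering it. The Gapdh peak was centred 1406 bp downstream of an internal TSS and lay beyond the annotated end of the gene, so that it belongs to Gapdh only by the 1-kb rule.

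Bio-Myc and Max calls coincided closely. The Max peaks covered a median of 85.7% of the Bio-Myc peak and at least 50% of it in 1058 members (95.1%), and the distance between both centres had a median of 106 bp. The smallest overlap was 29 bp. Only 1 Max peak was overlapped in 1078 members and 2 in the other 34.

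**Figure D3:**
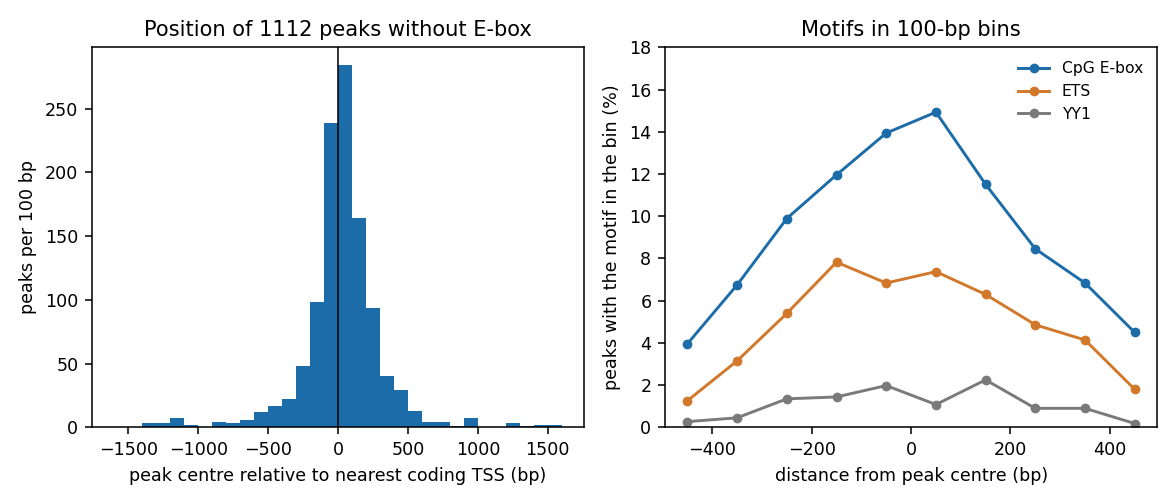
Left, number of the 1112 peaks by the distance of their centre from the nearest coding TSS in bins of 100 bp, with positive values downstream. Right, percent of these peaks that held the CpG E-box, ETS or YY1 motif in each 100-bp bin around the peak centre. The centres gather within 250 bp of the TSS, and the CpG E-box is most frequent in the bins next to the centre (13.9 and 14.9%). The same bins were the highest in promoters with CACGTG (11.4 and 11.9%) and in Max-only promoters (12.1 and 13.0%), which are not drawn.

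Other E-box sequences were common in these promoters. In the whole peak, 698 members (62.8%, 95% Wilson interval 59.9 to 65.6%) held CACGCG at least once, with 376 peaks holding 1, 192 holding 2, 81 holding 3 and 49 holding 4 or more. CACGAG was found in 427 members (38.4%), CAGCTG in 430 (38.7%), CATGTG in 375 (33.7%), CATGCG in 326 (29.3%), CACGTT in 304 (27.3%) and CAACGTG in 102 (9.17%). Any of the 5 variants that hold a CpG was present in 969 (87.1%). Matches can overlap: every CAACGTG holds a CACGTT on the other strand, and the NRF1 motif holds CATGCG. Only 63 members (5.67%) held none of the 7 variants, and their Bio-Myc scores (median 102), Max scores (median 153) and widths (median 864 bp) were below the medians of all members. Members with CACGCG had a median Bio-Myc score of 135 and a median width of 1077 bp, compared with 127 and 983 bp without it. These shares depend on width. The comparison with other promoters was therefore made in the central 300 bp, which fixes the length searched but not the width of the peaks.

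Of the 7 E-box variants, CACGCG had the largest difference in share from each of 3 other classes of promoters. In the central 300 bp it was present in 399 of 1112 members (35.9%, 95% Wilson interval 33.1 to 38.7%). It was present in 30.7% of the 1298 shared coding promoters with CACGTG, in 30.1% of 3603 coding promoters with Max but no Bio-Myc peak and no CACGTG, and in 22.3% of 349 coding promoters with Bio-Myc but no Max peak and no CACGTG. The differences passed Fisher's exact test (two-sided) over peaks with Benjamini-Hochberg adjustment over 83 tests, with adjusted p-values of 0.0447, 0.00242 and 2.81e-05 in this order. Regions of a library are not replicates of a condition, and these p-values compare lists of regions. The windows were centred on the Bio-Myc peak in all classes except that with Max only, where they were centred on the Max peak. In all coding TSSs the same motif was present in 11.5% of 300-bp windows, and in CpG-rich coding TSSs without a peak in 18.2%. Against the promoters with CACGTG the difference no longer passed without chromosome 8 (4.45 percentage points, adjusted exact p = 0.122) or among CpG-rich regions only (4.12 points, adjusted exact p = 0.291, an alternative chosen after seeing the data). In 300 bp around the nearest coding TSS the shares were 30.85% and 28.89%, and the difference did not pass (1.955 points, adjusted exact p = 0.589). Where both scores had to reach 150, the difference was 8.705 points and did not pass (adjusted exact p = 0.0551). It passed in 2 of the 6 alternatives, 5 of 6 against Max-only promoters and 6 of 6 against Bio-Myc-only promoters.

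The other variants showed fewer differences. CATGTG was less frequent than in Bio-Myc-only promoters (10.8% against 16.3%, adjusted exact p = 0.0456 by Fisher's exact test), a difference that turned to 1.15 points higher among CpG-rich regions only. Compared with Max-only promoters, CATGTG was more frequent in the central 500 bp (3.66 points, adjusted exact p = 0.0160). The same held in the whole peak (11.3 points, adjusted exact p = 1.56e-12), but this difference passed under no other setting. CAGCTG was less frequent than in Max-only promoters (13.2% against 17.7%, adjusted exact p = 0.00291), and in the whole peak this difference was 0.118 points in the other direction. The other 4 variants did not pass in any of the 3 comparisons in the central 300 bp. Against the promoters with the canonical E-box, CACGAG stood at 17.0% in the members and 13.5%, CATGCG at 12.95% and 11.9%, CACGTT at 7.37% and 8.94%, and CAACGTG at 3.15% and 2.85%. Under other settings some of these passed. CACGAG was more frequent than in promoters with CACGTG in the central 500 bp (4.34 points, adjusted exact p = 0.0405) and without chromosome 8 (4.32 points, adjusted exact p = 0.0269), but the difference was -1.12 points in the whole peak (adjusted exact p = 0.649). Against Max-only promoters, CACGAG passed in the central 500 bp (5.06 points, adjusted exact p = 0.00282) and in the whole peak (9.64 points, adjusted exact p = 2.03e-08). Against the same class CATGCG passed in the central 500 bp (3.37 points, adjusted exact p = 0.0357), in the whole peak (7.45 points, adjusted exact p = 2.74e-06) and around the TSS (3.004 points, adjusted exact p = 0.0441). Against Bio-Myc-only promoters CACGAG passed in the whole peak (7.74 points, adjusted exact p = 0.0182). For comparison, 7 other palindromes with a central CpG were searched, and none passed in any comparison in the central 300 bp. CACGCG is no palindrome, holds more CpGs and is more frequent than each of these, so they are not matched to it. Their results therefore cannot decide whether its differences follow from the CpG content of the promoters. In the members ACCGGT stood at 4.68%, TGCGCA at 15.6%, GTCGAC at 2.61%, CTCGAG at 8.36%, TCCGGA at 12.4%, AGCGCT at 10.52% and GACGTC at 8.90%. GACGTC came closest, against 6.09% in promoters with CACGTG (adjusted exact p = 0.0508), and TGCGCA followed, against 10.3% in Bio-Myc-only promoters (adjusted exact p = 0.0651).

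Motifs of other promoter factors also differed in share. The ETS motif CCGGAAG, read by a large family that includes Gabpa and Elk proteins, was present in 20.1% of the members, 14.4% of the promoters with CACGTG (adjusted exact p = 0.00242), 14.1% of Max-only promoters (adjusted exact p = 3.88e-05) and 18.1% of Bio-Myc-only promoters (adjusted exact p = 0.643, Fisher's exact test). The YY1 motif AAGATGGCG, whose factor binds many promoters of ribosomal and mitochondrial genes, was present in 4.59% of members and 1.83% of Max-only promoters (adjusted exact p = 2.81e-05), and in all 6 alternatives this difference passed. With 3.24% in promoters with CACGTG (adjusted exact p = 0.252) and 6.02% in Bio-Myc-only promoters (adjusted exact p = 0.532) the other YY1 differences did not pass. The YY1 difference from promoters with CACGTG did pass in the central 500 bp (3.02 points, adjusted exact p = 0.00904). It also passed in the whole peak (3.28 points, adjusted exact p = 0.0108), but under no other setting. NRF1, a regulator of nuclear genes for mitochondria, had its motif in 4.32% of members and 2.31% of promoters with CACGTG (adjusted exact p = 0.0447), and this was lost among CpG-rich regions (adjusted exact p = 0.210). The differences from the NRF1 shares of 2.998% in Max-only (adjusted exact p = 0.138) and 2.29% in Bio-Myc-only promoters (adjusted exact p = 0.267) did not pass. Against Max-only promoters NRF1 did pass in the central 500 bp (2.49 points, adjusted exact p = 0.00510). It also passed in the whole peak (3.91 points, adjusted exact p = 1.90e-05), but under no other setting. Where both scores had to reach 150, the ETS difference was 4.09 points from Max-only promoters and 4.77 points from promoters with CACGTG, and neither passed (adjusted exact p = 0.268 for both). In the whole peak the ETS difference from promoters with CACGTG was 3.95 points and did not pass (adjusted exact p = 0.0854). Of the other factor motifs searched, Sp/Klf (GGGCGG) was the most frequent, in 63.9% of members and 58.9% of promoters with CACGTG (adjusted exact p = 0.0579). In 300-bp windows of CpG-rich coding TSSs without a peak, ETS stood at 15.99%, NRF1 at 2.652%, YY1 at 3.791% and Sp/Klf at 74.34%. In 300 bp around the nearest coding TSS, all members stood at 24.10%, 5.576%, 6.295% and 70.86% in this order. The members were thus below this background for Sp/Klf. For YY1 the Max-only promoters were below it, with 2.720% around the TSS. Differences from this background were not tested. NF-Y (CCAAT, 26.5% of members), E2F (GGCGGGAA, 5.67%), the TATA box (TATAAA, 3.33%), CRE (TGACGTCA, 3.24%, a motif that holds GACGTC), AP-1 (TGACTCA, 1.53%), Znf143 (CTACAATTC, 0.540%) and T-box (AGGTGTGA, 0.450%) passed in none of the comparisons in the central 300 bp.

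**Figure D4:**
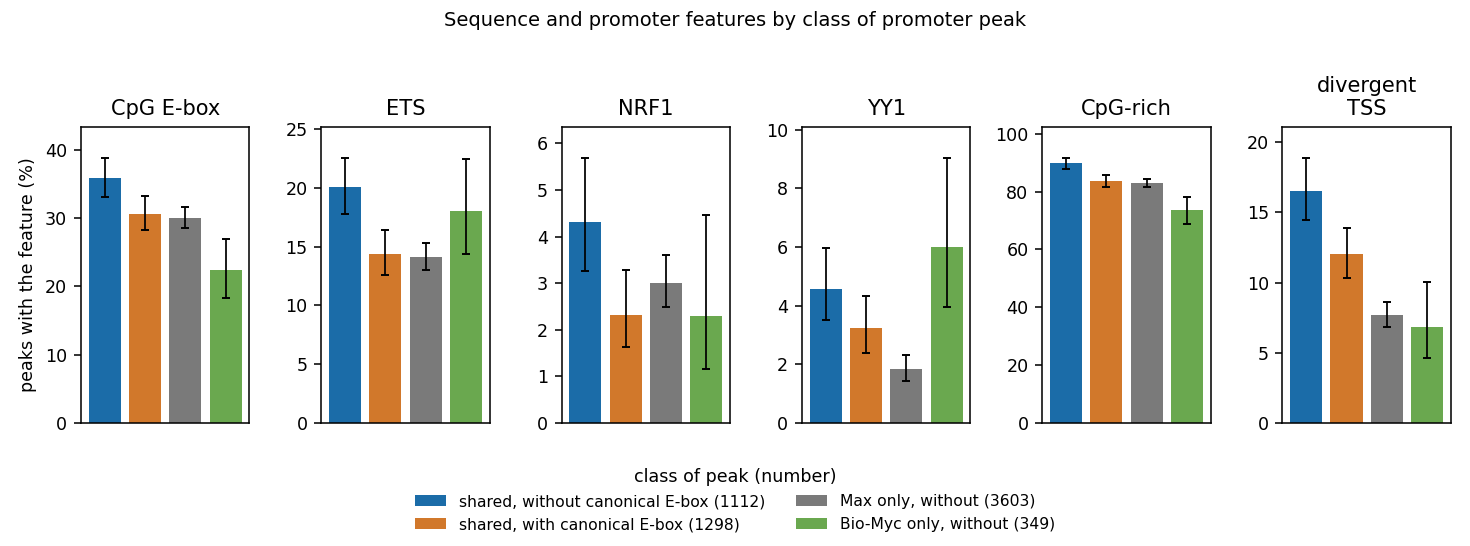
Percent of promoter peaks (y axes, each from 0 with its own scale) with the CpG E-box, ETS, NRF1 or YY1 motif, CpG-rich sequence or a divergent coding TSS, in the 4 classes of peaks given in the legend. Motifs and CpG content were read in the central 300 bp, and error bars are 95% Wilson intervals. The members (blue) have the highest bar in every panel but YY1, where the Bio-Myc-only promoters stand at 6.02% against 4.59%.

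The members were also more often CpG-rich and more often at divergent promoters than each of the 3 classes. A CpG-rich central sequence, with at least 50% GC and an observed to expected CpG ratio of at least 0.6, was found in 999 members (89.8%), compared with 83.7% of promoters with CACGTG, 83.0% of Max-only and 73.6% of Bio-Myc-only promoters (Fisher's exact test, adjusted exact p = 9.43e-05, 3.71e-07 and 3.57e-11). Where both scores had to reach 150, the difference in CpG-rich sequence from Max-only promoters was 3.31 points and did not pass (adjusted exact p = 0.255). The median GC was 66.3% in the members. A coding TSS on the opposite strand within 1 kb of the nearest coding TSS was present in 184 members (16.55%), compared with 12.02%, 7.69% and 6.88% (adjusted exact p = 0.0105, 1.29e-14 and 3.61e-05). The difference in divergent promoters from the Max-only class passed in all 3 alternatives run for it, with differences between 8.02 and 8.86 points. Where both scores had to reach 150, the difference from promoters with CACGTG (adjusted exact p = 0.249) and from Bio-Myc-only promoters (adjusted exact p = 0.880) did not pass. CACGTG lay in the 500 bp beyond either edge in 11.5% of the members, 12.1% of Max-only promoters (adjusted exact p = 0.774) and 9.74% of Bio-Myc-only promoters (adjusted exact p = 0.585), and no difference was detected in this measure.

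By gene, 1338 of 22350 protein-coding genes had a member within 1 kb of a TSS, which is 5.99%, and 1486 had a shared peak with CACGTG, which is 6.65%. Only 36 genes had both, and 13 had 2 or more members. Of the members, 879 lay in the window of 1 coding gene, 227 in that of 2 and 6 in that of 3 or more. The gene lists below were tabulated with the results of these peaks known, and their counts are descriptions beside these background shares.

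Among the gene lists, cytosolic ribosomal proteins had the highest share of members. Of 85 genes for cytosolic ribosomal proteins and close paralogs, 47 (55.3%, 95% Wilson interval 44.7 to 65.4%) had a member, 30 had a shared peak with CACGTG and 76 had either. Their Bio-Myc scores started at 98.5 and had a median of 314, above the median of 132 of all members, and their Max scores ran from 98.8 to 893 with a median of 361. Bio-Myc scored higher than Max in 19 of these 47 peaks (40.4%), compared with 240 of all 1112 (21.6%). All 47 covered a coding TSS, 25 held CACGCG and 13 held it in the central 300 bp. Rps25, Rpl35a, Rps27l and Rps7 were among the highest of the group, with the scores given above.

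Mitochondrial ribosomal proteins were bound mostly without CACGTG. Of 75 genes, 23 (30.7%) had a member and only 6 a peak with CACGTG. Their scores were lower, with a Bio-Myc median of 143 and a maximum of 328 at Mrpl12, followed by Mrps18b (318), Mrps28 (309.5) and Mrpl43 (285). The CpG E-box lay in the central 300 bp in 13 of these 23 peaks (56.5%) and in 13 of the 47 of cytosolic ribosomal proteins (27.7%), a difference that was not tested.

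Aminoacyl-tRNA synthetases, which load tRNAs with their amino acids, had a member in 13 of 37 genes (35.1%) and a peak with CACGTG in 8. Yars (817), Gars (520), Lars (295) and Mars (294) had the highest Bio-Myc scores. In 8 of the 13 Bio-Myc scored above Max. Translation initiation factors had a member in 14 of 57 genes (24.6%), about as many as had a peak with CACGTG (16). Eif4g2 scored 436 for Bio-Myc and only 87.5 for Max, Eif2s3x on the X chromosome 359 and 262, Eif2s1 290 and 333, and Eif3d 200.1 and 528.5.

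Spliceosomal, Lsm and SR proteins, which process pre-mRNA, had a member in 20 of 57 genes (35.1%) and a peak with CACGTG in 8. Lsm2 (Bio-Myc 487, Max 542), Sf3b3 (417 and 1057, on chromosome 8), Snrpa1 (360 and 237) and the splicing regulator Srsf1 (357 and 914) led this group. RNA polymerase subunits had a member in 5 of 26 genes and a peak with CACGTG in 5. All 5 members held a CpG E-box, as did 62.8% of all members. The RNA polymerase members were led by Polr1d (439 and 236) and Polr3b (331 and 253), subunits of polymerases I and III.

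Other groups of growth genes were more often bound with the canonical E-box. Nucleolar factors of ribosome biogenesis had a member in 16 of 61 genes (26.2%) but a peak with CACGTG in 37 (60.7%). Among the 16 were Rrp1b (Bio-Myc 392, Max 826), Nhp2 (372 and 423.5), Nolc1 (302 and 577) and Bop1 (247 and 643). Of 10 chaperonin genes, all bound by both proteins, 3 had a member and 7 a peak with CACGTG. The 3 were Cct2, Cct5 (529 and 334) and Cct6a (308 and 472). Glycolysis genes had a member in 2 of 20, Gapdh (96.7 and 110) and Pgam1 (84.5 and 291), and a peak with CACGTG in 8. These counts were not tested against each other.

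**Figure D5:**
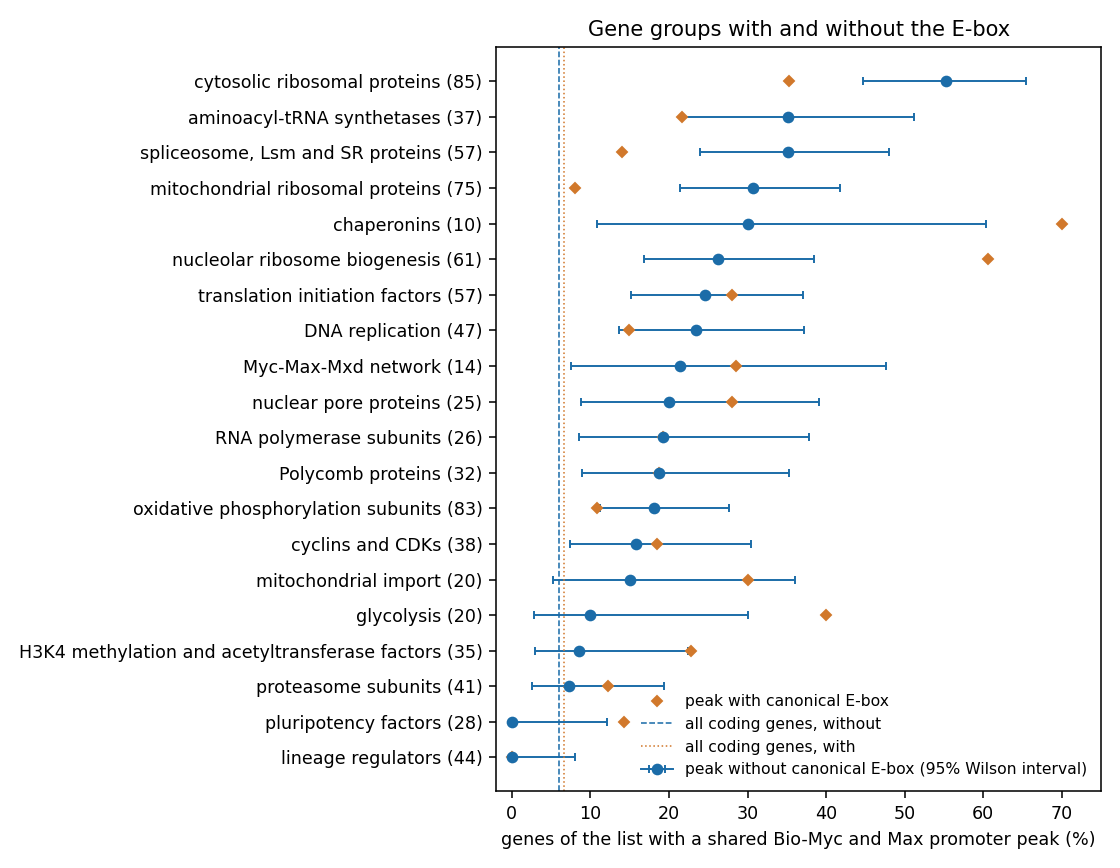
Percent of the genes of each list (number of genes in parentheses) with a shared Bio-Myc and Max promoter peak without CACGTG (circles, 95% Wilson intervals) and with CACGTG (diamonds), beside the shares of all coding genes (lines at 5.99 and 6.65%). Cytosolic and mitochondrial ribosomal proteins, synthetases and splicing factors have the circle to the right of the diamond, and nucleolar factors, chaperonins and glycolysis have it to the left. Where no diamond is seen (RNA polymerase, Polycomb, lineage regulators) it lies under the circle.

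Energy metabolism and replication genes also had members. Subunits of oxidative phosphorylation had a member in 15 of 83 genes (18.1%) and a peak with CACGTG in 9. Atp5g2 (298 for Bio-Myc and 624 for Max), Atp5e (264 and 376) and Cox5a (258 and 740) had the highest Bio-Myc scores, and 4 of the 15 peaks held a central YY1 motif. DNA replication genes had a member in 11 of 47 (23.4%) and a peak with CACGTG in 7, led by the helicase subunits Mcm7 (429 and 542), Mcm4 (301 and 233) and Mcm6 (265 and 210). An ETS motif lay in the centre of 4 of these 11 peaks. Mitochondrial import (3 of 20 genes, 6 with CACGTG), nuclear pore (5 of 25, 7 with CACGTG) and proteasome genes (3 of 41, 5 with CACGTG) had few members, led by Timm17a (283), Nup85 (441) and Psmc5 (245).

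Several chromatin and cell cycle regulators had a member. Of 32 Polycomb genes 6 had a peak with CACGTG and 6 (18.8%) had a member. Ezh2, the histone H3K27 methyltransferase (ENSMUSG00000029687.9), had the highest, with 370 for Bio-Myc and 409 for Max in a peak at chr6:47545058-47545924. Its nearest CACGTG was 13441 bp away. Of the 7 variants, the whole Ezh2 peak held 1 CpG E-box, 1 CAACGTG and the CACGTT that CAACGTG contains. Cbx7 (177 and 87.0) had a second shared peak that held CACGTG. Pcgf6 scored 155 and 317. Eed, which binds Ezh2 in the same complex, scored 90.9 and 165, and its nearest CACGTG was 92 bp beyond the edge. Mtf2 (86.2 and 177) held none of the 7 variants, and Ring1 (83.8 and 307) held 1 CpG E-box. Cyclins and CDKs had a member in 6 of 38 genes and a peak with CACGTG in 7. Among the 6 were Cdk12 (229 and 93.0), Cdkl2 (211 and 163), Ccna2 (184 and 87.9) and Ccnf (125 and 170). H3K4 methylation and acetyltransferase factors had a member in 3 of 35 (8.57%, against 5.99% of all coding genes) and a peak with CACGTG in 8. The 3 were Mll5 (327 and 368), Ruvbl2 (205 and 153) and Kat2a (120 and 232).

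Within the network of Max partners, 4 of 14 genes had a peak with CACGTG, and Mnt, Mga and Mxi1 were the only 3 with a member. Their Max scores were 1128, 904 and 146 and their Bio-Myc scores 478, 101 and 88.0, so Max scored higher in all 3. All 3 held CACGCG, in 3, 3 and 7 copies, and 62.8% of all members held it. In Mxi1 the copy nearest to the peak centre lies in a GT-rich repeat. Of 28 pluripotency factors none had a member (0%). The Wilson upper limit of 12.1% lies above the 5.99% of all coding genes, so this zero does not set the list apart. Of the same 28 genes, 4 had a peak with CACGTG and 12 a Max peak without Bio-Myc. Of 44 lineage regulators none had a shared peak of either kind (upper limit 8.03%), and 11 had a Max peak only. Among all 22350 coding genes, 12.5% had a shared peak of either kind, which is above this upper limit, and 4942 had a Max peak only. These differences were not tested. Depth limits these zeros, since peaks under a score of 80 are not in the lists.

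Of the 39 coding genes that the study names, 11 had a member and 13 a shared peak with CACGTG, and Cbx7 had both. Besides those described above, they included Ippk, an inositol phosphate kinase (310 for Bio-Myc and 296 for Max), and Rnf32, a RING finger protein (89.8 and 313). Most of these genes are named in the study beside results of the same libraries, and some as earlier known Myc targets or as controls, so that their number is no independent evidence. On each chromosome between 37.5% (X) and 53.7% (chromosome 12) of the shared coding promoter peaks held no CACGTG, with 6 members on the X chromosome and 107 on chromosome 11.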

How the data were processed

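Bio-Myc and Max ChIP-Seq peak lists of E14 ESCs were analysed, 1 library each. Per the labels and the methods of the study, the authors used Bowtie 0.12.7 to map reads to mm9 (only unique hits with at most 2 mismatches were kept, and redundant reads were collapsed) and called peaks with MACS 1.4.1 against a mock or IgG ChIP at a p-value of 1e-08. The deposited lists give position and a score, which the authors computed as 10 times the negative log10 of that p-value. Unique mapping leaves out repeated sequence, and the number of peaks depends on the number of reads, which is not in the lists. The mock and IgG libraries entered only through the peak calls.

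TSSs were those of GENCODE M1 and sequence was the NCBIM37 (mm9) genome. Each motif was searched on both strands. Classes were compared by Fisher's exact test over peaks, two-sided, with Benjamini-Hochberg adjustment over 83 tests and a threshold of 0.05. The alternatives were scores of at least 150, coverage of the TSS, other motif windows, leaving out chromosome 8 and, added later, CpG-rich regions only. Named genes were the 10 highest and 5 lowest Bio-Myc scores, the 5 highest Max scores, every gene the study names, and up to 4 genes of each list by Bio-Myc score. Of these, 1 is not reported here. The gene of a peak was that with the nearest TSS, except in the gene counts and lists. There a peak counted for every coding gene with a TSS within 1 kb, so genes such as Psmc5 and Ftsj3 share a peak. The members, motifs and lists were chosen with earlier results of these data known. Scripts ran in Python 3.11.15, with pysam 0.24.0 for sequence, scipy 1.17.1 for tests, numpy 2.4.6 and, for plots, matplotlib 3.10.9. The counting steps were tested on simulated data. Coordinates are 1-based.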

Additional observations from a re-analysis of the deposited data

How the results depend on the processing

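With a Bio-Myc score of at least 150, 460 members remained (38.02% of the shared promoter peaks at that limit), with median scores of 222.7 for Bio-Myc and 298.5 for Max and 567 genes. With both scores of at least 150 there were 392 (35.83%), with medians of 228.4 and 320.5. Searching CACGTG only in the central 300 bp gave 1761 members (73.07%), with medians of 148.4 and 264.9. Against the promoters with CACGTG, the Max-only and the Bio-Myc-only promoters, 3, 4 and 2 motifs passed in the central 300 bp, 7, 10 and 6 in the central 500 bp, 7, 21 and 11 in the whole peak, and 1, 1 and 1 where both scores had to reach 150, where 1 promoter feature each passed. In the same order of classes, 2, 6 and 1 motifs passed in 300 bp around the TSS and 1, 4 and 1 among CpG-rich regions. Whole peaks differ in width, and the stricter limit leaves fewer peaks. Among the motifs recomputed one by one (the E-box variants other than CAACGTG and its shorter form CACGTT, with ETS, NRF1, YY1 and Sp/Klf), and counting only differences that passed in the central 300 bp or in the alternative, the direction reversed in 4 cases. In the whole peak CATGTG was 4.57 points lower than with CACGTG (-4.567), and CAGCTG was 0.1179 points higher than in Max-only and 8.583 points higher than in Bio-Myc-only promoters. Among CpG-rich regions CATGTG was 1.149 points higher than in Bio-Myc-only promoters. The causes of these changes were not tested. No paired analysis was possible because each ChIP has 1 library, and depth cannot be assessed from the lists.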
